A study of Mus musculus with 8 samples.

Results

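Globin and erythroid genes were read across 8 RNA-seq libraries of whole mouse spines at E18.5, late in fetal development. The set was a list of 10 genes: the adult alpha globins Hba-a1 and Hba-a2, the adult beta globins Hbb-bs and Hbb-bt, the embryonic globins Hba-x, Hbb-y and Hbb-bh1, the erythroid enzyme Alas2 and the transcription factors Gata1 and Klf1. Of these 10 genes, 9 had a row among the 27179 genes of the deposited count table. The libraries came from male wild type (WT), male Pax1-Enh knockout (KO), female WT and female KO embryos, with 2 libraries in each of the 4 groups. The knockout lacks a stretch of DNA at Pax1, a transcription factor gene of the embryonic vertebral column. The sources used here do not give whether KO animals carried the deletion on one or both chromosomes, whether the 2 libraries of a group came from separate embryos, or whether blood was removed from the spines. The p-values therefore measure only the spread between these libraries, which may be technical.

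Red blood cells carry oxygen on hemoglobin, a tetramer of alpha-type and beta-type globin chains with heme. The mouse alpha-type genes lie in one cluster in the order Hba-x, Hba-a1, Hba-a2, and the beta-type genes lie in another. Primitive erythrocytes of the yolk sac use Hba-x, Hbb-y and Hbb-bh1, and definitive erythrocytes made later in the fetal liver and bone marrow use the adult genes. Alas2 makes the first product of heme synthesis in erythroid cells, and Gata1 and Klf1 encode transcription factors that bind erythroid promoters and enhancers. A whole spine holds marrow spaces and vessels, so its erythroid RNA can come from circulating and from resident cells. In such bulk samples fewer erythroid cells and less of a transcript per cell cannot be told apart.

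Total counts ran from 35181518 (female WT 2) to 48021848 (male WT 1) in WT and from 59722279 (male KO 2) to 67575728 (male KO 1) in KO, so every KO library was deeper than every WT library, and depth and genotype cannot be told apart. Levels are given as TMM-normalised CPM (counts scaled to a common library size), in which 3 counts stand for 0.0392 to 0.0831 CPM depending on the library. The 15 genes of the mitochondrial genome took 4.56% (male KO 1) to 20.9% (male WT 2) of all counts. The spine label was checked with 9 cartilage and bone markers, none of which was at 0 in any library, and Col2a1, the main collagen of cartilage, stood between 3526 and 22474 CPM.

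The promoters of the listed genes were read for motifs, and those of Hba-a1 and Hba-a2 were compared with each other. The 250 bases before the start of Hba-a1 (chr11:32283422-32283671, plus strand), of Hbb-bs (chr7:103827929-103828178, minus strand), of Hbb-y (chr7:103853208-103853457, minus strand) and of Alas2 (chrX:150547167-150547416, plus strand) are given 5′ to 3′ from RefSeq (GRCm38.p6, the mm10 build). Capitals mark matches on either strand to 4 motifs. The GATA motif was searched as AGATAA and, with another first base, as TGATAA. The motif of the Klf family was searched as CCNCNCCC and is called the CACCC-type motif here. The CCAAT box and the TATAA box of promoters were searched under those letters.
Hba-a1: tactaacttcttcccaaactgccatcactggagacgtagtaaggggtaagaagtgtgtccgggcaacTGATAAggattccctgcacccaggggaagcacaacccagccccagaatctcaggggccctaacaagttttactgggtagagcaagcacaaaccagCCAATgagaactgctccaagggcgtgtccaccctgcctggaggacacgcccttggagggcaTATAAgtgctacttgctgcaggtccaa
Hbb-bs: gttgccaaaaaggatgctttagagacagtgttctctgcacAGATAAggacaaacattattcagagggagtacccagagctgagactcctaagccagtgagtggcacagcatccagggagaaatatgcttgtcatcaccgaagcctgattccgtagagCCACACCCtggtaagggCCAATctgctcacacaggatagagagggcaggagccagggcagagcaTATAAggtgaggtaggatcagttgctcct
Hbb-y: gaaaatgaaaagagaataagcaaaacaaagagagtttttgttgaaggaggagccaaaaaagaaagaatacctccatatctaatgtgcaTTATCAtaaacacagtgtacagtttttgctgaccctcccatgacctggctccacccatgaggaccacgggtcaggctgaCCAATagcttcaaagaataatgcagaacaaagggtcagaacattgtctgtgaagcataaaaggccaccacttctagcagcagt
Alas2: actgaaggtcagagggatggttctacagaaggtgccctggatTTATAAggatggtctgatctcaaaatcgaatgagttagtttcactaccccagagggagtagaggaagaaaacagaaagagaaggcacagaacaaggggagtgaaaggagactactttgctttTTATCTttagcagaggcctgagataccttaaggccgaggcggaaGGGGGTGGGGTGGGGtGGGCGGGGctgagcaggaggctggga
The windows of Hba-a1 and Hba-a2 share an unbroken run of 247 of 250 bases, so the pair shown by Hba-a1 differs almost nowhere in this stretch. Of the 10 genes, 9 had a window in the RefSeq table. A GATA motif was present in 7 of the 9, against 16.6% of 32851 RefSeq promoter windows of the same length. The CCAAT box was present in 6 of the 9 (33.8% of all windows), the TATAA box in 6 (22.8%) and the CACCC-type motif in 5 (45.9%). The GATA, CCAAT and TATAA numbers include both Hba-a1 and Hba-a2, whose nearly identical windows are not separate observations. A match is a run of letters and does not show that a factor binds there.

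Near-identity also limits how reads can be assigned. Of the 100-base windows of the Hba-a2 transcript, 74.5% occur unchanged in the Hba-a1 transcript, and 56.5% of those of Hba-a1 occur in Hba-a2. For Hbb-bs, 62.6% of windows occur in Hbb-bt, whereas 0% of the windows of Hbb-y occur in Hbb-bs or Hbb-bh1 and 0% of those of Hba-x in Hba-a2. The split between Hba-a1 and Hba-a2 and the split among the adult beta genes are therefore uncertain, since no source used here gives the handling of reads that fit more than one gene. Hbb-bt had no row. A row under Hbb-b1, the identifier of an adult beta gene of another haplotype, is given beside Hbb-bs for that reason, and whether it counted reads over Hbb-bt is unknown.

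The adult globins Hba-a2 and Hbb-bs were the most abundant of the listed genes per length of transcript, averaging 626 and 468 CPM per kilobase over the 8 libraries. Alas2 followed at 26.0 CPM per kilobase and Hba-a1 at 5.25. The remaining genes stood below 1: Klf1 at 0.705, Hbb-y at 0.615, Hba-x at 0.390, Gata1 at 0.222 and Hbb-bh1 at 0.0447. Fetal spines at this age thus held far more adult than embryonic globin RNA. Hbb-y and Hbb-bh1 together made up 0.0206% (male WT 1) to 0.0954% of the beta-type globin counts of a library, and Hba-x made up 0.0227% (male KO 2) to 0.164% (female WT 1) of the alpha-type counts. Together Hba-a1, Hba-a2, Hba-x, Hbb-bs, Hbb-b1, Hbb-y and Hbb-bh1 took 0.0663% (male KO 1) to 0.207% (male WT 1) of all counts. The median was 0.114%. If reads that fit more than 1 gene were dropped, the globin shares of all counts are too low. The embryonic shares are then too high, since the adult genes would lose more reads. For male WT 1 the Wilson 95% interval of the globin share of all counts was 0.206% to 0.209%. It covers counting error only and is far narrower than the range over libraries.

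**Figure D1:**
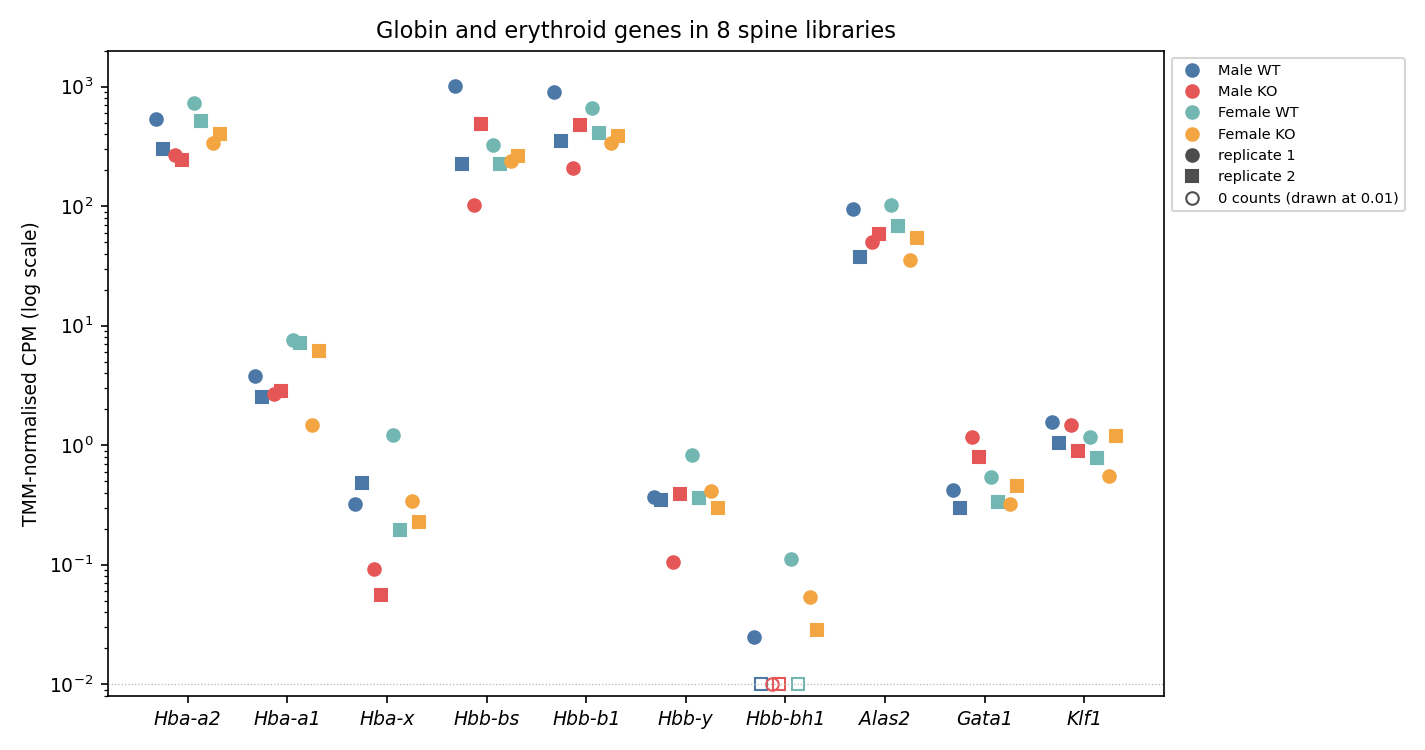
TMM-normalised CPM (log axis) of 9 of the 10 listed genes and of the Hbb-b1 row in each of the 8 libraries; colour marks the group, circles and squares mark replicates 1 and 2, and open symbols mark 0 counts. Hba-a2 lies lower in both KO libraries than in both WT libraries of each sex, Gata1 lies higher in both male KO libraries, and Hbb-bs is widely spread within male WT and male KO.

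Hba-a2 (Entrez 110257, chr11:32296492-32297310), which holds nearly all adult alpha globin counts, was at 536.5 and 300.8 CPM in WT males and at 270.8 and 243.0 CPM in KO males. In females it was at 733.3 and 515.4 CPM in WT and at 337.2 and 403.9 CPM in KO. Within each sex both KO libraries were below both WT libraries, but over the sexes the ranges overlapped, since male WT 2 was below both female KO libraries. By group mean the order was female WT (624 ± 154, SD, n = 2), male WT (419 ± 167), female KO (371 ± 47.2) and male KO (257 ± 19.6), and of these neighbours only female KO and male KO had ranges that did not overlap. The log2 fold change, KO minus WT, was -0.70 among males (SE 0.36, adjusted p = 0.382), -0.75 among females (SE 0.36, adjusted p = 0.548) and -0.73 across the sexes (SE 0.25, unadjusted p = 0.0159, adjusted p = 0.672). As a fold this was 0.604 over both sexes, with a 95% interval of 0.410 to 0.888. The difference did not pass the threshold of 0.05 once adjusted over the 18104 genes tested. Leaving out 1 library at a time kept it between -0.88 (without male WT 2) and -0.55 (without male WT 1).

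Hba-a1 (Entrez 15122, chr11:32283672-32284486), which encodes the same adult alpha chain type, was at 3.77 and 2.54 CPM in WT males and at 2.69 and 2.84 CPM in KO males. In WT females it was at 7.54 and 7.12 CPM, and in KO females at 1.46 and 6.15 CPM. The male ranges overlapped, and the female KO libraries lay below WT but far apart from each other. Its share of the joint Hba-a1 and Hba-a2 counts was 0.432% (female KO 1) to 1.5% (female KO 2), so the extremes of that share were both in 1 group. Its log2 fold change was -0.57 across the sexes (SE 0.41, adjusted p = 0.853).

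Hbb-bs (Entrez 100503605, chr7:103826523-103827928), an adult beta globin, varied widely between the male libraries of the same group. Its level was 1010 and 224.3 CPM in WT males and 102.9 and 487.4 CPM in KO males. In females it was 324.6 and 225.7 CPM in WT and 238.9 and 261.8 CPM in KO. KO and WT overlapped in both sexes, and all 4 group ranges overlapped their neighbours in the order male WT (617 ± 555 CPM, SD, n = 2), male KO (295 ± 272), female WT (275 ± 69.9) and female KO (250 ± 16.1). KO minus WT, the log2 fold change was -1.06 among males (SE 0.78, adjusted p = 0.520) and -0.14 among females (SE 0.77, adjusted p = 0.952). Over both sexes the fold was 0.660, with a 95% interval of 0.276 to 1.58, which includes both a fall and a rise. Without male WT 1 the male value was 0.40 and the value over both sexes was 0.07, so the direction rested on 1 library.

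The Hbb-b1 row behaved in part like Hbb-bs. It was at 903.7 and 351.4 CPM in WT males, 208.6 and 476.6 CPM in KO males, 664.6 and 413.4 CPM in WT females, and 335.9 and 387.4 CPM in KO females. The female KO libraries lay below female WT and the male ranges overlapped. Hbb-bs took 32.8% (female WT 1) to 52.8% (male WT 1) of the joint Hbb-bs and Hbb-b1 counts, so the adult beta counts did not divide in a fixed ratio. For Hbb-b1 the log2 fold change over both sexes was -0.72 (SE 0.37, adjusted p = 0.758).

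The balance of beta-type to alpha-type counts also differed among libraries. Beta-type genes, with Hbb-b1 included, took 77.98% and 65.5% of globin counts in WT males, 53.2% and 79.7% in KO males, 57.2% and 55.0% in WT females, and 62.9% and 61.3% in KO females. The widest gap was between the 2 male KO libraries. The 4 libraries with the largest mitochondrial share of counts (male WT 1, male WT 2, male KO 2 and female KO 1, at 18.3%, 20.9%, 15.6% and 13.6%) were the same 4 of 4 with the largest beta-type share. The part of the mitochondrial share in this balance was not tested.

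**Figure D2:**
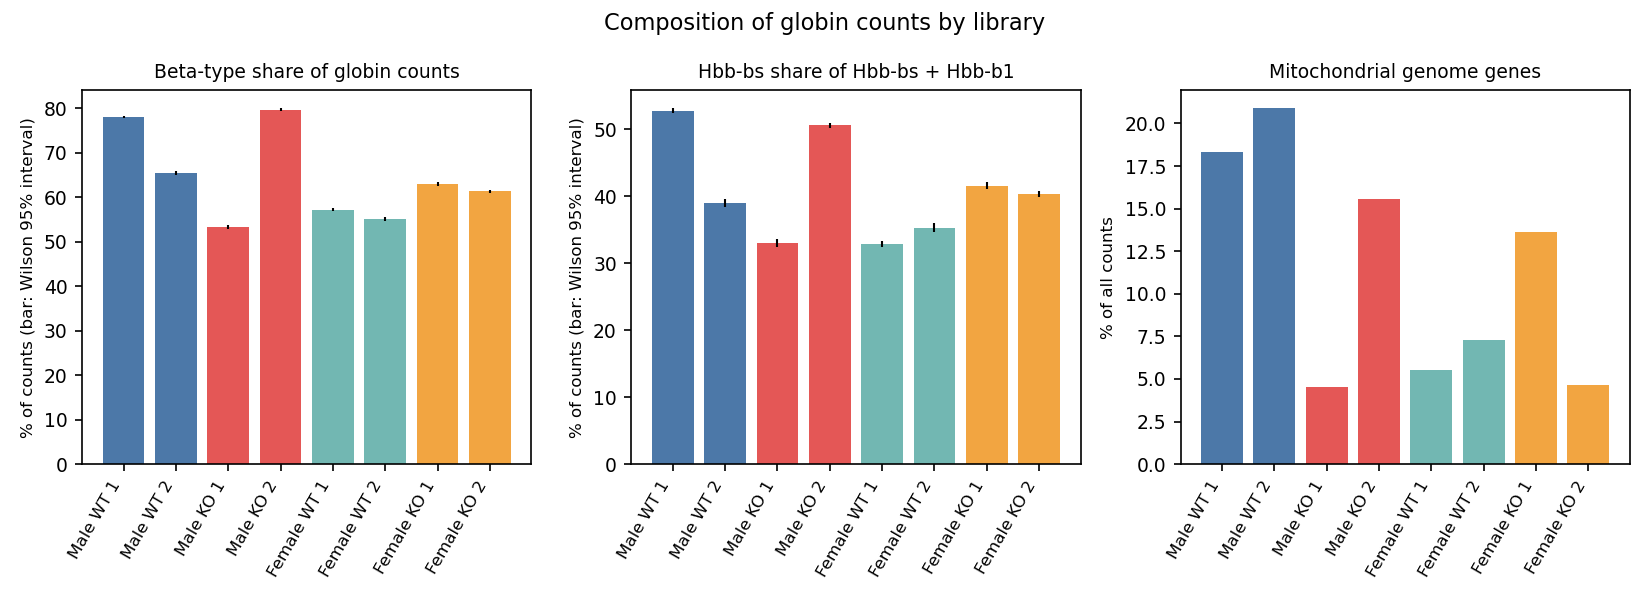
Share of beta-type genes among globin counts (left), share of Hbb-bs in the Hbb-bs and Hbb-b1 counts (middle) and share of 15 mitochondrial genome genes among all counts (right) in each library, in percent; thin bars are Wilson 95% intervals for counting error. Male WT 1 (77.98%) and male KO 2 (79.7%) are the libraries with the largest beta-type share, and their group partners stand at 65.5% and 53.2%.

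Embryonic globin RNA was present at low counts. Hba-x (Entrez 15126, chr11:32276600-32278116), the embryonic alpha-type zeta chain, had 13 and 21 counts in WT males, 7 and 3 in KO males, 54 and 7 in WT females, and 19 and 16 in KO females. In CPM these were 0.321 and 0.484, 0.0915 and 0.0557, 1.21 and 0.194, and 0.339 and 0.228. Both male KO libraries were below both male WT libraries, and in females the KO libraries lay between the WT libraries. The group means were 0.704 CPM in WT females, 0.403 in WT males, 0.283 in KO females and 0.0736 in KO males, and only the last of these was apart from its neighbour. The log2 fold change was -2.38 among males (SE 0.88, unadjusted p = 0.0252, adjusted p = 0.292), -1.33 among females (SE 0.76, adjusted p = 0.560) and -1.78 across the sexes (SE 0.58, unadjusted p = 0.0132, adjusted p = 0.650). Without female WT 1, which held 54 of the counts, the female value was 0.53.

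Hbb-y (Entrez 15135, chr7:103851754-103853207), the embryonic epsilon-like beta chain, had 15 and 15 counts in WT males, 8 and 21 in KO males, 37 and 13 in WT females, and 23 and 21 in KO females. Its levels were 0.370 and 0.346 CPM, 0.105 and 0.390 CPM, 0.832 and 0.360 CPM, and 0.411 and 0.299 CPM in the same order. KO and WT overlapped in both sexes, and all group ranges overlapped. Its log2 fold change over both sexes was -0.67 (SE 0.47, adjusted p = 0.846). Female WT 1 was the highest library for Hbb-y, as it was for Hba-x, Hba-a1, Hba-a2 and Alas2. Hbb-bh1 (Entrez 15132, chr7:103841638-103843162), the other embryonic beta-type gene, had 11 counts in all 8 libraries together and did not pass the filter on low counts. It had 1 and 0 counts in WT males, 5 and 0 in WT females, 0 and 0 in KO males, and 3 and 2 in KO females. For the 4 libraries without a count, a count of 0 allows up to 0.0692 CPM in male WT 2, 0.0831 in female WT 2, 0.0392 in male KO 1 and 0.0557 in male KO 2. No difference in Hbb-bh1 was detectable at this depth.

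Alas2 (Entrez 11656, chrX:150547417-150570622), the erythroid form of the first enzyme of heme synthesis, was at 93.9 and 37.6 CPM in WT males and at 49.95 and 58.9 CPM in KO males. In females it was at 101.8 and 67.7 CPM in WT and at 35.7 and 53.7 CPM in KO. Both female KO libraries were below both female WT libraries, while the male KO libraries lay between the male WT libraries. In the order of group means, female WT (84.7 ± 24.1, SD, n = 2), male WT (65.8 ± 39.7), male KO (54.4 ± 6.29) and female KO (44.7 ± 12.7), every pair of neighbours overlapped. KO minus WT, the log2 fold change was -0.27 among males (SE 0.42, adjusted p = 0.769), -0.92 among females (SE 0.42, adjusted p = 0.546) and -0.60 across the sexes (SE 0.31, adjusted p = 0.760). The fold over both sexes was 0.661, with a 95% interval of 0.406 to 1.07. Without male WT 1 the male value was 0.53.

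Gata1 (Entrez 14460, chrX:7959260-7976663), a zinc finger factor of erythroid, megakaryocyte and mast cells, was the only one of the 8 genes tested with a positive value in males. It was at 0.419 and 0.2999 CPM in WT males (17 and 13 counts) and at 1.16 and 0.799 CPM in KO males (89 and 43 counts). In females it was at 0.540 and 0.332 CPM in WT and at 0.321 and 0.456 CPM in KO. Both male KO libraries stood above the 6 others, and the other 3 groups overlapped one another. The log2 fold change was 1.45 among males (SE 0.48, unadjusted p = 0.0155, adjusted p = 0.274) and -0.17 among females (SE 0.49, adjusted p = 0.898). In males the fold was 2.73, with a 95% interval of 1.28 to 5.84. The direct test of a sex-by-genotype difference (female minus male effect) gave -1.62 (SE 0.69, unadjusted p = 0.0436, adjusted p = 0.291), which did not pass the threshold. With any 1 library left out, the male value stayed between 1.15 and 1.71, and the smallest adjusted p was 0.105.

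Other cells also use Gata1, so their markers were read beside it. All 7 mast cell markers had positive log2 fold changes in males (median 0.81) and 5 of 7 had negative ones in females (median -0.52), the same signs as Gata1. Their summed level was 163.5 to 222.7 CPM in WT males, 179.7 to 330.1 CPM in KO males, 133.6 to 222.3 CPM in WT females and 91.2 to 176.0 CPM in KO females, with overlap in both sexes and with none of the 7 markers at 0 in any library. Of the 8 megakaryocyte markers 5 were positive in males (median 0.25) and 7 negative in females (median -0.26), so the medians had the signs of Gata1. The 3 negative in males, where 54.6% of all genes were negative, included Treml1 (-1.15) and Gp9 (-0.99). The summed level of the 8 markers overlapped in both sexes. It was 40.9 to 49.98 CPM in WT males, 45.6 to 58.9 CPM in KO males, 38.2 to 44.5 CPM in WT females and 30.8 to 40.6 CPM in KO females. None of the 8 was at 0 in any library. The part of mast cells and megakaryocytes in the Gata1 values was not tested.

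Klf1 (Entrez 16596, chr8:84901982-84905291), a zinc finger factor that acts on the adult beta globin promoter, was not higher in KO males, unlike Gata1. It was at 1.55 and 1.04 CPM in WT males, 1.46 and 0.892 CPM in KO males, 1.17 and 0.776 CPM in WT females, and 0.553 and 1.18 CPM in KO females. All groups overlapped. Its log2 fold change over both sexes was -0.15 (SE 0.35, adjusted p = 0.989), and the fold of 0.903 had a 95% interval of 0.525 to 1.55.

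**Figure D3:**
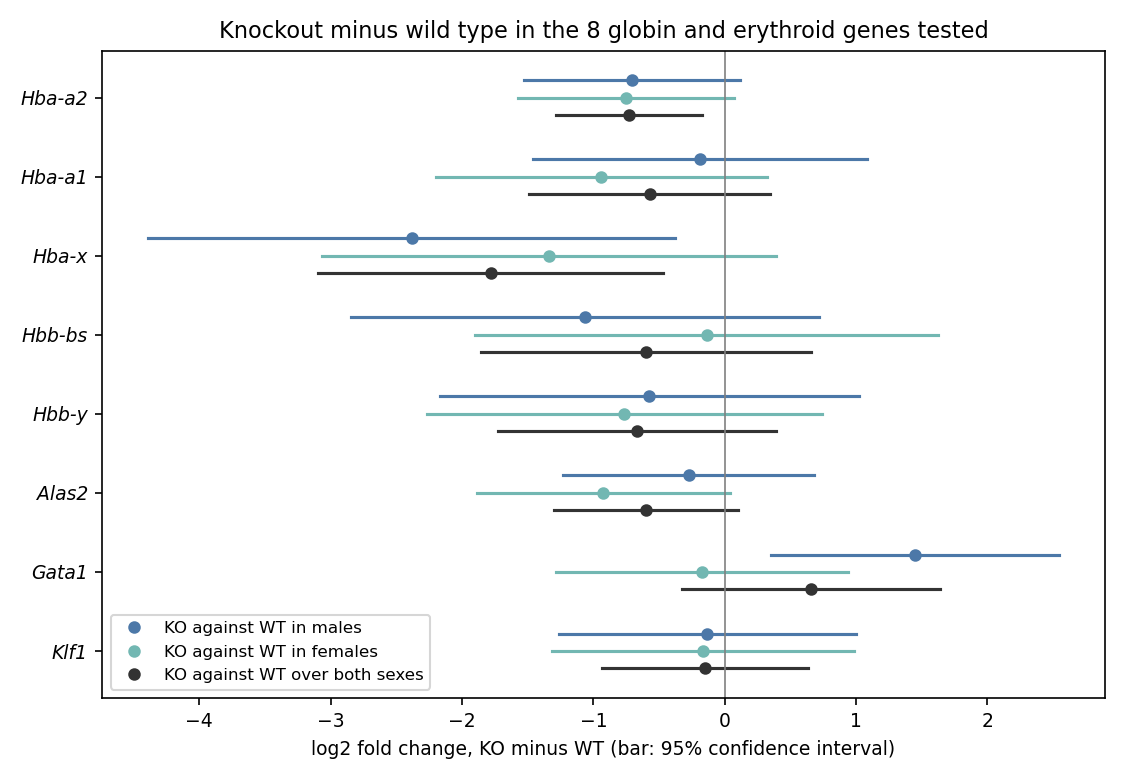
Log2 fold change, KO minus WT, of the 8 genes tested in males, in females and over both sexes; points are edgeR estimates and bars are 95% confidence intervals. Of the 8 points over both sexes, 7 are negative, the intervals of Hba-x in males and of Hba-x and Hba-a2 over both sexes lie below 0 before adjustment, and only Gata1 in males has an interval above 0.

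Across the genes tested, none of the 8 passed an adjusted p of 0.05 in edgeR in males, in females or over both sexes, where 0% of all 18104 genes passed in each comparison. At an unadjusted p under 0.05 edgeR called 2 of 8 in males (14.8% of all genes), 0 of 8 in females (9.27%) and 2 of 8 over both sexes (6.83%). DESeq2 also passed 0 of 8 after adjustment, with 2.66%, 0.795% and 0.779% of all genes passing, and called 2, 2 and 2 of the 8 unadjusted (16%, 10.1% and 8.1% of all genes). With limma voom 0 of 8 passed (0% of all genes in each), and 2, 0 and 2 had an unadjusted p under 0.05 (15.2%, 7.94% and 6.39%). The 2 genes in edgeR were Hba-x and Gata1 in males and Hba-x and Hba-a2 over both sexes. In simulated counts with this design, edgeR recovered 66 of 88 genes changed by 2 on the log2 scale in males. Over both sexes it recovered 87 of 88, among 17798 genes simulated. The simulation gave all genes the same coefficient of variation of 31.1%. In the real counts the SE in males was 0.78 for Hbb-bs and 0.88 for Hba-x, above the median of 0.32. Ucp1, a brown fat marker, was at -5.95 over both sexes (SE 1.26, adjusted p = 0.510) and did not pass. Recovery can therefore be lower for such genes than in the simulation.

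The signs leaned one way. Values were negative for 7 of 8 genes in males (54.6% of all genes), for 8 of 8 in females (47.4%) and for 7 of 8 over both sexes (51.1%), and the medians of -0.42, -0.76 and -0.60 stand beside medians of -0.06, 0.03 and -0.01 over all genes tested. The direction depended on the scaling for 2 genes in males: with library totals alone Hba-a1 was at 0.03 and Klf1 at 0.13, a scaling that put the median of all genes at 0.15. Signs within a sex also rested on single libraries. Without male WT 1 the male values of Hba-a1 (0.13), Hbb-bs (0.40), Alas2 (0.53) and Klf1 (0.19) were positive. Without female WT 1 the female values of Hbb-bs (0.14), Hba-x (0.53) and Gata1 (0.22) were positive. Hba-a2 stayed negative with any 1 library left out, at -1.06 to -0.22 in males and -0.99 to -0.49 in females. Groups did not overlap, with KO lower, for 2 of 8 genes in males (23.9% of all genes) and 3 of 8 in females (26.2%), and with KO higher for 1 of 8 in males (19.7%). Over both sexes 0 of 8 had all 4 KO libraries below all 4 WT libraries (1.63%) or above them (1.68%). These shares of genes whose groups did not overlap were close to those of all genes. The genes share the same libraries and, among the globins, sequence, so they are not independent of each other. The cartilage and bone markers leaned the other way, with 9 of 9 positive over both sexes (median 0.72). Of these, 4 were higher at an unadjusted p under 0.05 in edgeR (2.84% of all genes). CPM is relative to the whole library, and the part of tissue composition in the signs was not tested.

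Between the sexes no gene of the 8 differed past the threshold in edgeR, where 0.0166% of all genes passed, and 0 of 8 had an unadjusted p under 0.05 (8.67% of all genes). DESeq2 called 3 of 8 (11.3% of all genes) and limma voom 1 of 8 (8.31%) unadjusted, and after adjustment each called 0 of 8 (1.3% and 0.0276% of all genes). Hba-a2 had a log2 difference, female minus male, of 0.55 (SE 0.25, adjusted p = 0.565), Hba-a1 of 0.84 (SE 0.41, adjusted p = 0.567) and Hba-x of 1.27 (SE 0.58, adjusted p = 0.565). Hbb-bs had -0.70 (SE 0.56, adjusted p = 0.621), so the alpha-type genes and Hbb-bs had opposite signs in this comparison. Without male WT 1 the Hbb-bs value was -0.03, so its size rested on that library. Whether the KO effect differed between the sexes was tested directly, and of the 8 genes 0 passed (0% of all genes) and 1, Gata1, had an unadjusted p under 0.05 in edgeR (16.7%). DESeq2 and limma voom also passed 0 of 8 there (2% and 0% of all genes), with 0 and 1 of 8 unadjusted (18.2% and 16.3%).

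Genes whose levels over the 8 libraries were most like those of Alas2 were found by Pearson correlation of log2 CPM, given here as a description of libraries that share depth and composition. Gene models without a proper name, 3 of which ranked before the last gene given here, were left out. The highest values among named genes were for Tyw3 (0.90), a tRNA modification gene, Ltb (0.89), a lymphoid cytokine, and Cxcr4 (0.88), a chemokine receptor. Ptpn7 (0.81), Lag3 (0.80), Atxn7l1 (0.80), H2-Eb1 (0.80), Hbb-b1 (0.77), Gata2 (0.77) and Abt1 (0.77) followed. Of the listed genes Hba-a2 was nearest to Alas2 (0.76), then Hba-a1 (0.73), Hbb-bs (0.56), Klf1 (0.50), Hbb-y (0.44), Hba-x (0.29) and Gata1 (0.16). Gata1 had negative values with Hba-x (-0.54) and Hbb-y (-0.49) and a positive one with Klf1 (0.47). Among the 100 genes nearest to Alas2, 4 belonged to the erythroid lists described next, which hold 0.601% of the 14969 genes ranked.

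The rest of the erythroid programme was read from 102 genes in lists for other globins, heme synthesis, iron handling, red cell membrane, transcription factors, globin switching, EPO and KIT signalling and late maturation. Of these 98 had a row and 95 were tested. None of the 95 passed the threshold in edgeR in any comparison. At an unadjusted p under 0.05, 9 were higher and 4 lower in KO males (7.53% and 7.29% of all genes), 4 higher and 11 lower in KO females (4.53% and 4.74%), and 1 higher and 9 lower over both sexes (2.84% and 3.99%).

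Of 7 other globin genes listed, 4 had a row and 3 were tested. Hbb-bh2 had no count in any library, and the theta-like genes Hbq1a and Hbq1b had 2 to 15 and 6 to 34 counts per library. Over both sexes their log2 fold changes were -0.50 (Hbq1a, SE 0.64, adjusted p = 0.954) and 0.03 (Hbq1b, SE 0.45, adjusted p = 0.997). The genotypes overlapped over both sexes. Within a sex, at these low counts, Hbq1a was lower in both KO than in both WT female libraries. Hbq1b was higher in both KO than in both WT male libraries, and the remaining within-sex ranges overlapped.

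Heme synthesis genes had mostly negative values. Of 12 tested, 9 were negative in males (median -0.26), 11 in females (median -0.57) and 11 over both sexes (median -0.34), with 5 lower at an unadjusted p under 0.05 over both (3.99% of all genes). Alas1, the form of the enzyme that all cells use, was at 179.4 and 42.6 CPM in WT males, 52.8 and 39.9 CPM in KO males, 95.4 and 413.5 CPM in WT females, and 37.7 and 49.0 CPM in KO females. Female WT 2 was by far its highest library, and its log2 fold change over both sexes was -1.91 (SE 0.57, adjusted p = 0.641). Tmem14c, a mitochondrial carrier of heme precursors, had -0.90 (SE 0.30, adjusted p = 0.650), Alad, the second enzyme of the pathway, -0.85 (SE 0.33, adjusted p = 0.708), and Clpx, a mitochondrial chaperone acting on the first enzyme, -0.67 (SE 0.26, adjusted p = 0.703). Brown fat markers differed in the same direction as the list. Their summed level was 698.6 and 101.8 CPM in WT males, 148.9 and 1631 CPM in WT females, 35.4 and 12.2 CPM in KO males, and 17.4 and 21.5 CPM in KO females, with all 4 of 4 markers lower at an unadjusted p under 0.05 and none at 0 in any library. Female WT 2 and male WT 1 were the libraries highest both in brown fat markers and in Alas1. The part of fat cells in the heme synthesis values was not tested.

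Among 11 iron handling genes 8 were negative over both sexes, with a median of -0.08. Tfrc, the transferrin receptor that brings iron into erythroblasts, had -0.45 (SE 0.27, adjusted p = 0.812), and Fth1, the ferritin heavy chain that stores it, had -0.48 (SE 0.29, adjusted p = 0.810). Aco1, an iron-sensing RNA-binding protein, had -1.03 (SE 0.34, adjusted p = 0.650) and, like Alas1, its highest level in female WT 2 (206.3 CPM). Of 15 genes of late maturation, 12 were negative over both sexes (median -0.16). Blvrb, a reductase of red cells, had -0.82 (SE 0.25, adjusted p = 0.644), Cat, the catalase gene, -0.85 (SE 0.30, adjusted p = 0.683), Car2, a carbonic anhydrase, -0.46 (SE 0.16, adjusted p = 0.683) and Prdx2, a peroxidase abundant in red cells, -0.23 (SE 0.18, adjusted p = 0.865). Cat was highest in female WT 2 (255.3 CPM) and male WT 1 (182.3 CPM), and Blvrb in the same libraries (51.9 and 43.4 CPM). These were the libraries highest in the brown fat markers given above, whose part in the late maturation values was not tested.

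Red cell membrane genes showed no shared sign between genotypes. Over both sexes 10 of 17 were positive, with a median of 0.14. Tmod1, which caps actin filaments in red cells and in muscle, had 1.35 among males (SE 0.33, adjusted p = 0.237) and -0.04 among females (SE 0.32, adjusted p = 0.968). Sptb, a spectrin chain, had 0.49 across the sexes (SE 0.25, adjusted p = 0.754) and Gypc -0.53 (SE 0.28, adjusted p = 0.760). Between the sexes, 11 of 17 were lower in females (median -0.54), 5 of them at an unadjusted p under 0.05 (5.29% of all genes), among them Rhag (-1.44), Epb42 (-1.33) and Ermap (-1.09). These genes were named after their values were seen. Liver markers differed in the same way: all 8 of 8 hepatocyte genes were lower in females at an unadjusted p under 0.05 (median -2.67), and their summed level was 951.9 to 1218 CPM in WT males, 91.2 to 1104 CPM in KO males, 39.3 to 145.7 CPM in WT females and 67.7 to 129.9 CPM in KO females. White blood cell markers were lower in females too. Of 8 neutrophil markers 8 were negative (median -1.12, 6 at an unadjusted p under 0.05), with summed levels of 959.0 to 1244 CPM in WT males, 489.4 to 1021 CPM in KO males, 161.7 to 451.6 CPM in WT females and 110.0 to 268.6 CPM in KO females. Of 8 macrophage markers 7 were negative (median -0.40, 4 at an unadjusted p under 0.05), with summed levels of 267.6 to 313.6, 325.9 to 355.5, 250.3 to 269.8 and 222.0 to 290.4 CPM in the same order. None of these markers was at 0 in any library, and their part in the membrane gene values was not tested.

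Of the transcription factors other than Gata1 and Klf1, Runx1, a factor of blood stem cells, was at 13.7 and 13.1 CPM in WT males, 26.7 and 23.1 CPM in KO males, 13.5 and 12.2 CPM in WT females, and 18.1 and 18.7 CPM in KO females. All 4 KO libraries were above all 4 WT libraries, as for 1.68% of all genes, and the log2 fold change over both sexes was 0.71 (SE 0.16, unadjusted p = 0.0016, adjusted p = 0.510). The cartilage and bone markers were also positive over both sexes (9 of 9, median 0.72), with a summed level that overlapped between genotypes. Their part in the Runx1 values was not tested. Foxo3, a factor of red cell maturation and of other tissues, was at 9.42 and 9.78 CPM in WT males, 30.5 and 24.2 CPM in KO males, 19.7 and 20.03 CPM in WT females, and 15.3 and 18.8 CPM in KO females. Male WT was the low group and male KO the high group, with a log2 fold change of 1.51 among males (SE 0.23, adjusted p = 0.184) and -0.22 among females (SE 0.22, adjusted p = 0.698). The sex-by-genotype difference for Foxo3 was -1.73 (SE 0.32, adjusted p = 0.243). Gfi1b, a repressor of erythroid and megakaryocyte cells, had 1.42 among males (SE 0.58, adjusted p = 0.319), and Myb, a progenitor factor, had 0.37 across the sexes (SE 0.22, adjusted p = 0.813). Over the list, 9 of 14 were positive in males (median 0.06) and 11 of 14 negative in females (median -0.21).

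Regulators of globin switching, which silence embryonic globins in adult-type cells or keep them on, had a median near 0 over both sexes (0.01, 6 of 12 positive). Nr2c2, an orphan receptor that binds embryonic globin promoters, had 0.50 (SE 0.28, adjusted p = 0.783), its partner Nr2c1 0.10 (SE 0.15, adjusted p = 0.974), Sox6, a repressor of Hbb-y, 0.24 (SE 0.19, adjusted p = 0.874) and Nfia, a factor of erythroid commitment, -0.17 (SE 0.16, adjusted p = 0.924). Within a sex 3 of the list had larger values, and these were named after their values were seen, or by the list rule in the case of Nr2c2. Bcl11a, a repressor of embryonic globins, had -0.72 among males (SE 0.26, adjusted p = 0.288) and 0.63 among females (SE 0.26, adjusted p = 0.534), with a sex-by-genotype difference of 1.35 (SE 0.37, adjusted p = 0.243). Nfix, a nuclear factor that is active in blood progenitors, had 1.08 (SE 0.35, adjusted p = 0.268) and -0.72 (SE 0.35, adjusted p = 0.548), with a difference of -1.80 (SE 0.49, adjusted p = 0.243). Nr2c2 had 1.02 (SE 0.30, adjusted p = 0.254) and -0.02 (SE 0.30, adjusted p = 0.982), with a difference of -1.04 (SE 0.43, adjusted p = 0.287). The values over both sexes average these opposite signs, and none passed the threshold. Of 5 spinal cord markers, 5 were negative in males (median -0.71) and 5 positive in females (median 0.61), the signs of Bcl11a. Their summed level was 953.3 to 1211 CPM in WT males and 653.9 to 703.3 CPM in KO males. In females it was 531.0 to 603.0 CPM in WT and 844.8 to 886.4 CPM in KO. The part of spinal cord cells in the Bcl11a values was not tested.

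EPO and KIT signalling genes had opposite median signs in the sexes. Of 11 tested, 9 were positive in males (median 0.56) and 8 negative in females (median -0.36), and 5 had a lower female than male effect at an unadjusted p under 0.05 (7.13% of all genes). Stat5b, a transducer of the EPO receptor, had 0.60 among males (SE 0.22, adjusted p = 0.288) and -0.10 among females (SE 0.21, adjusted p = 0.866). Cish, a target and inhibitor of that pathway, had 0.20 (SE 0.54, adjusted p = 0.875) and -1.21 (SE 0.55, adjusted p = 0.541). Kit, the receptor of early progenitors and mast cells, had 0.24 (SE 0.27, adjusted p = 0.684) and 0.17 (SE 0.27, adjusted p = 0.811). Erfe, the hormone of erythroblasts that lowers hepcidin, had 0.61 (SE 0.34, adjusted p = 0.417) and -0.01 (SE 0.34, adjusted p = 0.995). The medians of markers of other cells had the same signs. Of 6 endothelial markers 6 were positive in males (median 0.69) and 5 negative in females (median -0.43), and their summed level did not overlap in either sex, at 164.3 to 307.5 CPM in WT males, 356.6 to 446.7 CPM in KO males, 379.0 to 555.0 CPM in WT females and 313.2 to 343.5 CPM in KO females. Neutrophil markers had medians of 0.30 and -0.61 (5 of 8 positive and 5 of 8 negative), and the mast cell markers given beside Gata1 had 0.81 and -0.52. The summed neutrophil level leaned the other way in males, at 959.0 to 1244 CPM in WT and 489.4 to 1021 CPM in KO, with overlap. The most abundant neutrophil markers, S100a9 and S100a8, had -0.66 and -0.68 in males. None of these markers was at 0 in any library, and their part in the EPO and KIT values was not tested.

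**Figure D4:**
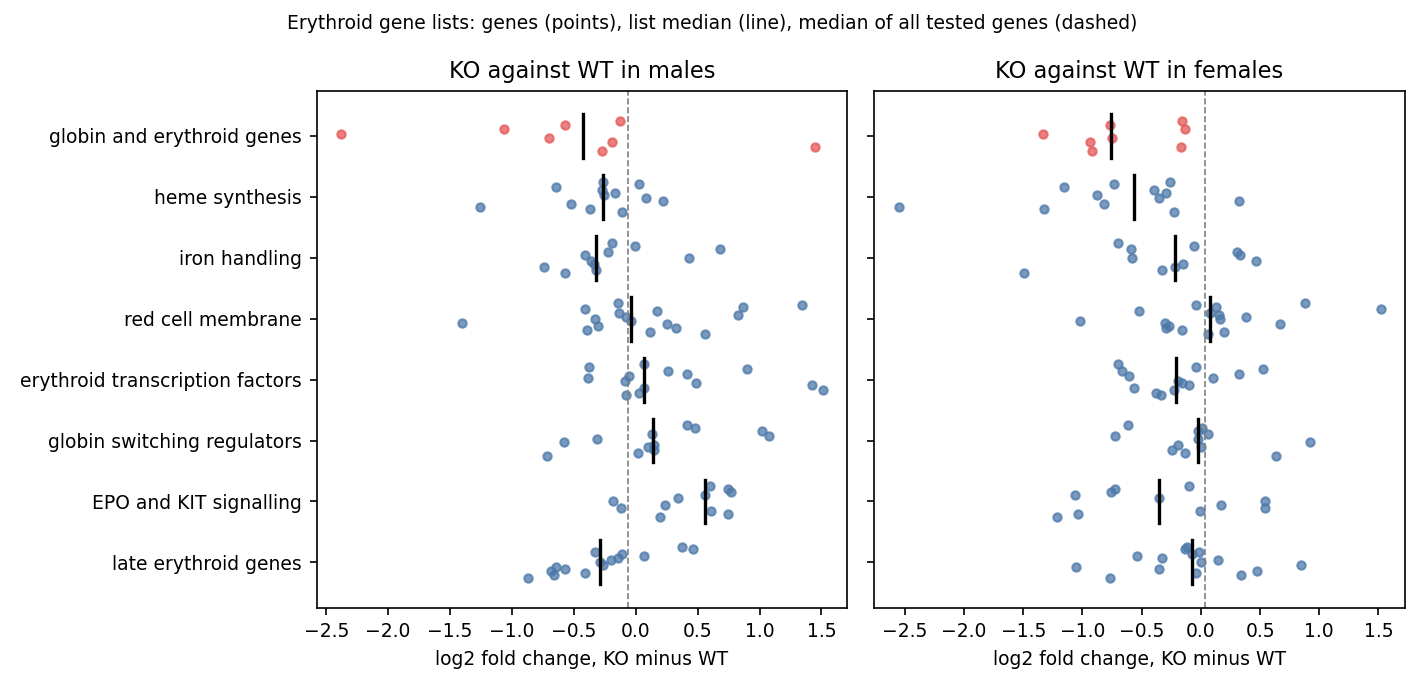
Log2 fold change, KO minus WT, of the genes tested in each erythroid list in males (left) and females (right); each point is a gene, the black line is the list median and the dashed line is the median of all 18104 genes tested. Points scatter on both sides of 0 in most lists, and the EPO and KIT list has medians of 0.56 in males and -0.36 in females.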

How the data were processed

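The 8 libraries were made from TRIzol RNA with a stranded kit for polyadenylated RNA, per the labels' protocols. The authors deposited raw whole-number read counts per Entrez gene, and FastQC 1.0.0, MultiQC 1.0.0, HISAT2, featureCounts and mm10 are named in the submitters' processing notes. No source used here gives the annotation, the strand setting or the handling of multi-mapping reads. Of 27179 identifiers, 25275 took symbols from RefSeq (GRCm38.p6), 18 from GENCODE M21, and 1886 none. Every column belonged to a sample. Counts were filtered with filterByExpr (minimum count 10; 18104 genes kept), TMM-normalised and tested in edgeR 4.0.16 (R 4.3.3), two-sided, with Benjamini-Hochberg adjustment over all genes tested and a threshold of 0.05. Effects within each sex and their difference came from 4 group means (4 residual degrees of freedom), those over both sexes from sex plus genotype (5). The fit was tested on simulated counts. The biological coefficient of variation was 31.1%, and the median SE was 0.32 within a sex and 0.26 over both. Totals differed between libraries, and replicate libraries differed by more than counting noise (chi-square 138 to 678 times its degrees of freedom), so all were kept. Up to 4 genes per list, those with the smallest p over both sexes, were named by rule; some items are not reported here. Alternatives were DESeq2 1.42.0, limma 3.58.1, other scalings, no filter, a replicate block and leaving out each library. The listed genes, the other gene lists and the tests were chosen with earlier results of these data known.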

Additional observations from a re-analysis of the deposited data

How the results depend on the processing

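Over 16 alternative settings, 0 of the tested genes passed the threshold in any comparison, and the smallest adjusted p was 0.105 (Gata1 in males, leaving out 1 library). Of 616 values of single genes, 585 kept their sign and 31 changed it, 27 of these when 1 library was left out; the cause was not tested. With library totals alone, which put the median of all genes at 0.15 in males, -0.23 for the sex-by-genotype difference and 0.17 for female against male, Hba-a1 was 0.031 and Klf1 0.13 in males. For the sex-by-genotype difference, Hbb-y was 0.20 with limma voom and Klf1 0.030 with the replicate block. Leaving out 1 library gave ranges that crossed 0 in males for Hba-a1 (-0.44 to 0.13), Hbb-bs (-2.58 to 0.40), Hbb-y (-1.75 to 0.12), Alas2 (-0.78 to 0.53) and Klf1 (-0.54 to 0.19), and in females for Hbb-bs (-0.38 to 0.14), Hba-x (-2.10 to 0.53), Gata1 (-0.48 to 0.22) and Klf1 (-0.82 to 0.28). Over both sexes they crossed 0 for Hbb-bs (-0.99 to 0.072) and Klf1 (-0.37 to 0.035), between the sexes for Alas2 (-0.23 to 0.26), and for the sex-by-genotype difference for Hba-a2 (-0.53 to 0.31), Hbb-bs (-0.53 to 2.45), Hbb-y (-0.89 to 0.98) and Klf1 (-0.71 to 0.41).

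Counts over all genes moved more. DESeq2 called 481 genes in males, 144 in females, 141 over both sexes, 362 for the sex-by-genotype difference and 235 between the sexes. Without the filter edgeR called 39 in males, 1 for the sex-by-genotype difference and 12 between the sexes, and with library totals alone 1 and 6 for those last comparisons. Without female WT 2 it called 33 in females and 9 for the sex-by-genotype difference. Between the sexes it called 35 without male KO 2 and 5 without female KO 1, and limma voom called 5. Replicate numbers did not pair the libraries: deviations of same-numbered libraries correlated at -0.53 (male KO with female KO) to 0.18 (male WT with female KO), and with the replicate block Hba-a2 was -0.69 over both sexes, Gata1 1.44 in males, and 0 of 8 genes passed.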

Other observations

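Globins that do not serve red cells were read beside the erythroid ones. Mb, the myoglobin gene of muscle, ranged from 25.5 CPM (female KO 2) to 77.0 CPM (male WT 1), Cygb, the cytoglobin gene of fibroblast-like cells, from 19.0 CPM (male KO 2) to 33.3 CPM (male KO 1), and Ngb, the neuroglobin gene, from 0.832 CPM (female WT 1) to 1.68 CPM (male WT 2). KO and WT ranges over both sexes overlapped for all 3 genes. The edgeR log2 fold changes over both sexes were -0.04 for Mb (SE 0.40, adjusted p = 0.996), -0.08 for Cygb (SE 0.21, adjusted p = 0.990) and 0.16 for Ngb (SE 0.34, adjusted p = 0.984), so no difference beyond the spread between libraries was detected in any of these genes.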
